A study of Drosophila melanogaster with 2 samples.

Results

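The oxidative phosphorylation subunit genes of Drosophila melanogaster were taken as every protein-coding gene of the annotation whose symbol begins with ND-, Sdh, UQCR-, ATPsyn or COX and a digit, which gave 88 of 13986 protein-coding genes. By symbol, 40 belonged to complex I, 8 to complex II, 9 to complex III, 16 to complex IV and 15 to complex V. They comprised 63 structural subunits, 24 paralogs whose symbol ends in L or in L and a digit, and the assembly factor Sdhaf3. ND-MNLL, whose final L is part of the subunit's name, was counted as a subunit. The binding data were ChIP-seq peak lists for a fusion of the transcription factor Xrp1 with eGFP, precipitated with an antibody to GFP from whole embryos collected at 8 to 24 h. The 2 biological replicates came from the strain Xrp1-GFP, which carries an insertion targeting Xrp1, and formed 1 group. No other genotype and no mock precipitation was analysed here, and whole embryos mix all cell types, so a peak cannot be assigned to a tissue. The files hold peaks and no reads, so the depth behind each value is unknown, and binding lists carry no measure of the genes' transcription.

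The respiratory chain passes electrons from NADH through complex I, or from succinate through complex II, by way of ubiquinone to complex III, and by cytochrome c to complex IV, which reduces oxygen. Complexes I, III and IV pump protons across the inner mitochondrial membrane, and complex V uses the gradient to make ATP. Most subunits are encoded in the nucleus, so their promoters are open to nuclear transcription factors. Xrp1 is a basic leucine zipper protein with an AT-hook, known in Drosophila for its roles in cell competition and in the response to stress and DNA damage.

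The summit windows of 4 genes show the sequence under the strongest conservative peak of complexes I, III, IV and V. Each spans the summit and 50 bp on either side and is printed 5′ to 3′ on the plus strand of Release 6 (dm6) from the RefSeq genome. Capitals mark a match on either strand to TTGCATCA, the core of the C/EBP-ATF composite site, to the C/EBP-type word TTGCNNAA, to the shorter word TTGCAA, or to TGACG, the first part of the cyclic AMP response element TGACGTCA. The windows lie at chrX:6679320-6679420, chr3L:16566236-16566336, chr3R:11819460-11819560 and chr3R:14326876-14326976, in the order of the lines.
ND-ASHI: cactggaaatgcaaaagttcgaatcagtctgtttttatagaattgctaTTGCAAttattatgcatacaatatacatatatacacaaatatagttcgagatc
UQCR-6.4L: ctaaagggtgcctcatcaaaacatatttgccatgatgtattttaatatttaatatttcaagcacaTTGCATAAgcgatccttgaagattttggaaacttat
COX5A: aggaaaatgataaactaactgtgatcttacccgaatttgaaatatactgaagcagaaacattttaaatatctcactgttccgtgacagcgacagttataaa
ATPsynE: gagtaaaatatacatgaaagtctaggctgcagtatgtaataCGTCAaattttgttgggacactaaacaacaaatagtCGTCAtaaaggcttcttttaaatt
The TTGCAA at ND-ASHI sits 0.5 bp from the summit, the TTGCATAA at UQCR-6.4L sits 18.5 bp from it, and the COX5A window holds none of the marked words.

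A gene was counted as occupied when the summit of a peak in the conservative list, the shorter of the authors' thresholded lists of both replicates, lay within 500 bp of one of its annotated transcription start sites (TSSs). Of the 88 oxidative phosphorylation genes, 22 (25%, 95% Wilson interval 17.1 to 35.0%) were occupied. Across all protein-coding genes the share was 23.1%, inside that interval. The strength of the occupied promoters was also close to the general level. The authors' peak signal had a median of 127 and ran from 61.9 at ND-13A to 537 at ND-ASHI, against a median of 144 over the 3234 occupied protein-coding genes. Of the 22 members, 13 (59.1%) had a peak above the median signal of the list, against 58.7% of all occupied genes. The top-ranked member was ND-ASHI, at rank 383 of 7537 conservative peaks.

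**Figure D1:**
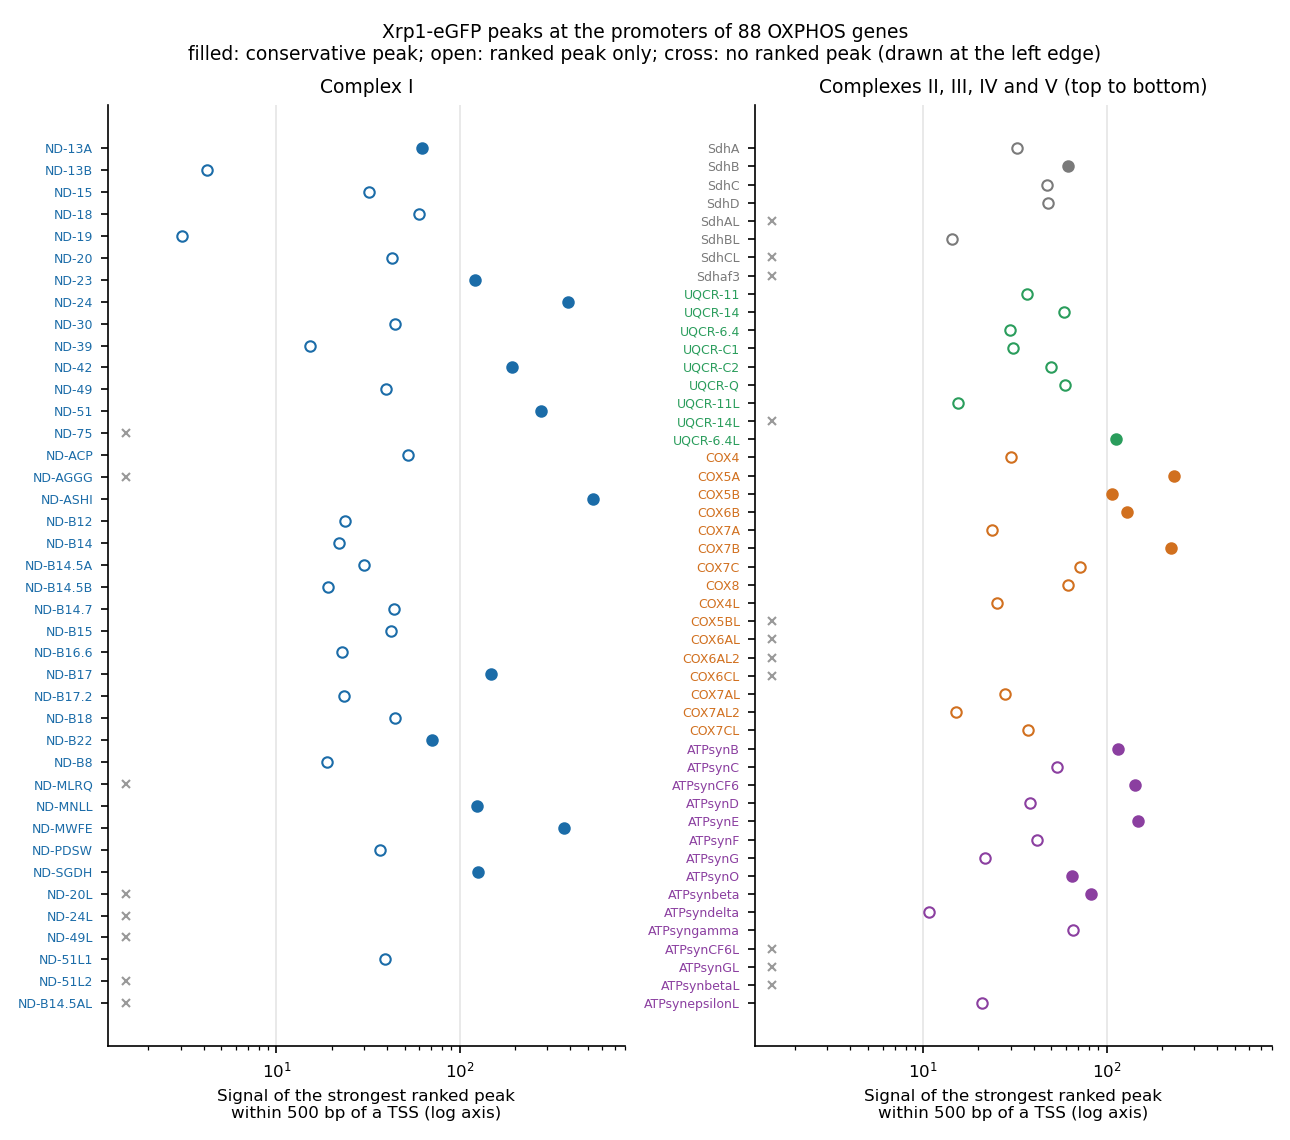
Strongest ranked Xrp1-eGFP peak within 500 bp of a TSS for each of the 88 genes, with the authors' peak signal on a log axis and genes grouped by complex. Filled circles mark the 22 genes with a conservative peak, which run from 61.9 to 537, open circles the 47 genes with a ranked peak only, and crosses the 19 genes with no ranked peak.

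Complex I, the NADH dehydrogenase, held 11 of the 22 occupied genes among its 40 (27.5%, 16.1 to 42.8%), and these included the strongest 4 of all members. Roles are given as known for the mammalian counterparts. ND-ASHI (FBgn0029888), a small accessory subunit of the membrane arm, had a conservative signal of 537 at chrX:6679251-6679489, with its summit at -252 bp from the TSS, where negative values are upstream. In each replicate's own ranked list the signal at ND-ASHI was 378 in replicate 1 and 162 in replicate 2. The summit lay in an intron of one transcript of Fum1, the neighbouring gene for the fumarase of the tricarboxylic acid cycle, and at -270 bp from another Fum1 TSS, so that a single peak counted for both genes.

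ND-24 (FBgn0030853), a subunit that carries an iron-sulfur cluster in the NADH-oxidising tip, had a signal of 388 at chrX:17632068-17632306, with the summit at 106 bp inside its own intron. Its own-list signals were 253 and 136 in replicates 1 and 2, with summits 25 bp apart, between the annotated TSSs of the gene. ND-51 (FBgn0031771), the flavoprotein that binds NADH and FMN in the same tip, had a signal of 277 at chr2L:6062786-6062938, at -121 bp, with 159 and 120 in the replicates. ND-24 and ND-51 of that tip were thus among the strongest members, while ND-75, its large iron-sulfur subunit, had no ranked peak within 500 bp and a conservative summit at -744 bp with a signal of 84.1. Both strong peaks were shared with a gene on the opposite strand. The ND-24 summit lay 148 bp from a TSS of corolla, and the ND-51 summit 111 bp from one of CG13994.

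ND-MWFE (FBgn0085468), a small subunit of the membrane arm, had a signal of 371 at chr2R:13158365-13158592, at -210 bp, with 246 and 122 in the replicates. That summit lay 11 bp from a TSS of TppII, a peptidase gene on the opposite strand. The other complex I genes with a conservative peak were weaker. ND-42, an accessory subunit of the membrane arm, reached 194 at -186 bp and ND-B17, also of the membrane arm, 148 at -109 bp. ND-SGDH and ND-MNLL, 2 more membrane arm subunits, reached 126 at -37 bp and 124 at -97 bp.

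ND-23, an iron-sulfur subunit next to the ubiquinone site, reached 121 at -120 bp. ND-B22, of the membrane arm, reached 71.0 with its summit at the TSS itself (0 bp), in the 5′ UTR, and was absent from the authors' second thresholded list. ND-13A, a small accessory subunit of the peripheral arm, had the lowest signal of all occupied members, 61.9, at 85 bp in its coding sequence, with 38.4 and 25.2 in the replicates. The iron-sulfur and quinone-site subunits ND-20, ND-30 and ND-49 had no conservative peak at the promoter, and their ranked signals were 42.7, 44.6 and 39.7. ND-30 passed the threshold of replicate 1's own list. Without replicate 1, in replicate 2's own list, 6 complex I genes were occupied.

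Complex II, succinate dehydrogenase, had 1 occupied gene of 8 (12.5%, 2.24 to 47.1%). This was SdhB (FBgn0014028), the iron-sulfur subunit, with a signal of 62.0 at chr2R:6807414-6807777 and -30 bp, and with 35.6 and 27.4 in the replicates. It passed the threshold of neither replicate's own list. The flavoprotein SdhA and the membrane anchors SdhC and SdhD had ranked peaks of 32.3, 47.4 and 48.2 within 500 bp. SdhC passed the threshold of replicate 1's own list, with a signal of 49.2. The assembly factor Sdhaf3 had no ranked peak. SdhA and SdhC had conservative summits farther out, at -926 bp with a signal of 268 and at -1958 bp with 200.

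Complex III, the cytochrome bc1 complex, had 1 occupied gene of 9 (11.1%, 1.99 to 43.5%), and it was a paralog. UQCR-6.4L (FBgn0262842) had a signal of 113 at chr3L:16566104-16566467, at -464 bp and inside an intron of Mipp1, with 72.5 and 39.1 in the replicates. It passed the threshold of replicate 1's own list but not that of replicate 2. None of the 6 structural subunits was occupied, which allows a share of up to 39.0%, and all 6 had a ranked peak. Their signals ran from 29.9 at UQCR-6.4 to 59.7 at UQCR-Q, known as a ubiquinone-binding subunit. The core proteins UQCR-C1 and UQCR-C2 were at 30.7 and 49.9.

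Complex IV, cytochrome c oxidase, had 4 occupied genes of 16 (25%, 10.2 to 49.5%), all of them among its 8 structural subunits. COX5A (FBgn0019624), a subunit on the matrix side, had a signal of 234 at chr3R:11819409-11819544, at -89 bp from its downstream TSS and in the intron of the transcript that starts upstream. Its replicate signals were 153 and 83.5, with summits 47 bp apart. COX7B (FBgn0040793), a small membrane subunit, had 226 at chr3L:17425185-17425548, at -110 bp, with 150 and 68.3 in the replicates. The signals of COX5A and COX7B were close to each other in each list.

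COX6B (FBgn0031066), a subunit on the intermembrane side, had 129 at chrX:19744208-19744571, at -55 bp, with 68.9 and 57.6 in the replicates. It shares that TSS with CG18809. COX5B (FBgn0031830), which binds zinc on the matrix side, had 107 at chr2L:6557390-6557753, at -228 bp, with 71.1 and 31.8 in the replicates. COX6B passed both replicates' own thresholds and COX5B that of replicate 1. Both summits lay nearer to the TSS of another gene, and 2 of the 4 genes remained when each summit was given to its nearest TSS alone.

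Complex V, the ATP synthase, had 5 occupied genes of 15 (33.3%, 15.2 to 58.3%), all of them among its 11 structural subunits. ATPsynE (FBgn0038224), subunit e of the membrane domain, had a signal of 148 at chr3R:14326744-14327107 and -21 bp, with 104 and 42.4 in the replicates. ATPsynCF6 (FBgn0016119), coupling factor 6 of the peripheral stalk, had 143 at chr3R:23355989-23356352 and -107 bp, with 94.7 and 45.1. ATPsynB (FBgn0019644), the b subunit of the same stalk, had 115 at chr3L:9729798-9730161 and -19 bp, with 64.8 and 48.6. The stalk also includes ATPsynO, the oligomycin sensitivity protein, which was weaker.

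ATPsynO reached 64.9 at -34 bp, with 36.9 and 29.0 in the replicates. ATPsynbeta (FBgn0010217), the catalytic subunit, reached 82.5 at chr4:1031587-1031950 and -95 bp, with 42.6 and 40.5. Of the 5 genes, ATPsynB and ATPsynCF6 passed both replicates' own thresholds, ATPsynE passed that of replicate 1, and ATPsynO and ATPsynbeta passed neither. ATPsyngamma, the central shaft, and ATPsynC, the ring subunit, had ranked peaks of 65.3 and 53.6 with a global irreproducible discovery rate (IDR) of 0.328 and 0.0121. The IDR rests on how consistently a peak ranks across the replicates, so a similar signal can stand at a very different IDR.

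Structural subunits were occupied in a larger share than L paralogs. Of the 63 subunits, 21 (33.3%, 22.9 to 45.6%) were occupied, and of the 24 L paralogs 1 was (4.17%, 0.739 to 20.2%), so that the intervals did not overlap. The background of 23.1% lay just inside the interval of the subunits and above that of the L paralogs. Without replicate 1, in replicate 2's own list, 11 subunits (17.5%) and no L paralog were occupied, and the 0 of 24 allows a share of up to 13.8%, so that the order of the shares was the same but their intervals overlapped. The split was wider in the ranked list, where 60 subunits (95.2%, 86.9 to 98.4%) and 9 L paralogs (37.5%, 21.2 to 57.3%) had a peak of any strength, against a background of 67.1% and 69 of all 88 members (78.4%). The 3 subunits without one were ND-75, ND-AGGG and ND-MLRQ. At ND-75 and ND-MLRQ a peak appeared in at least 1 replicate's own ranked list, with signals of 4.99 and 9.21 at ND-75 and of 23.6, in replicate 1 alone, at ND-MLRQ.

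The L paralogs also differed from the subunits in gene structure. A TSS of a gene on the opposite strand lay within 500 bp upstream, in divergent arrangement, at 36 of 63 subunits (57.1%), 3 of 24 L paralogs (12.5%) and 29.6% of protein-coding genes. A single TSS position was annotated for 31 subunits (49.2%), 21 L paralogs (87.5%) and 73.5% of protein-coding genes. Both features moved with occupancy across the genome. Protein-coding genes with a divergent TSS were occupied in 40.6% of cases and those without in 15.8%, and genes with 1 TSS position in 17.9% and with 2 or more in 37.7%.

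Set against these backgrounds, the subunits with a divergent TSS were occupied in 15 of 36 cases (41.7%, 27.1 to 57.8%) and those without in 6 of 27 (22.2%, 10.6 to 40.8%). The interval held the matching background in each case. Among subunits with 1 TSS position 9 of 31 (29.0%, 16.1 to 46.6%) were occupied, and among those with 2 or more 12 of 32 (37.5%, 22.9 to 54.7%). Among L paralogs without a divergent TSS 1 of 21 was occupied (4.76%, 0.846 to 22.7%), and none of the 3 with one. Among L paralogs with 1 TSS position it was also 1 of 21 (4.76%, 0.846 to 22.7%). These intervals held the matching backgrounds of 15.8% without a divergent TSS and 17.9% with 1 TSS position. Over all members the shares were 15 of 39 (38.5%, 24.9 to 54.1%) with a divergent TSS and 7 of 49 (14.3%, 7.10 to 26.7%) without. The part of gene structure in the difference between subunits and L paralogs was not tested.

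**Figure D2:**
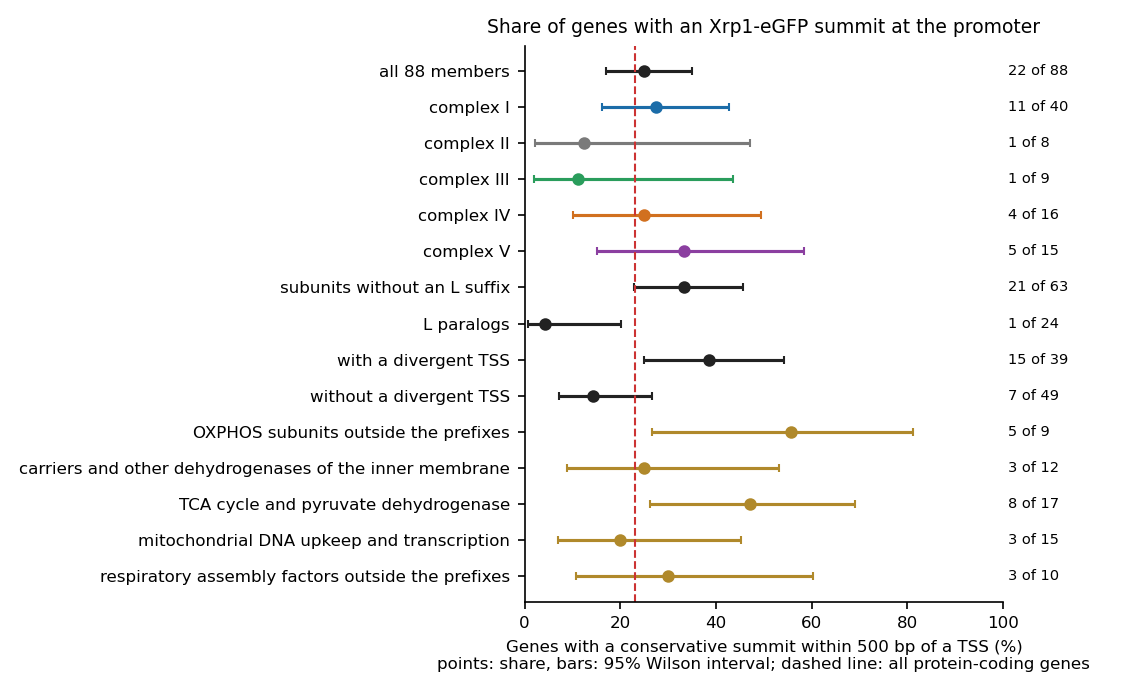
Percent of genes whose promoter holds a conservative summit, with 95% Wilson intervals, for the 88 genes, each complex, the subunits and L paralogs, members with and without a divergent TSS, and 5 lists of related mitochondrial genes. The dashed line is the 23.1% of all protein-coding genes, and the interval of the L paralogs, 0.739 to 20.2%, ends below it.

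The position of the summits followed that of other genes. Of the 22 occupied members, 19 (86.4%, 66.7 to 95.3%) had the nearest conservative summit upstream of the TSS, against 83.4% of all occupied protein-coding genes, and the median distance was -96.0 bp against -122 bp. The exceptions were ND-24 and ND-13A, downstream, and ND-B22, at the TSS. Without replicate 1 the share was 100%, over the 11 members of replicate 2's list. With the 5′-most TSS of each gene alone it was 77.3%. At ND-24, COX5A and ATPsynbeta the summit lay between TSSs of the gene itself, so its direction depends on the TSS used. Of the upstream summits 9 lay within 100 bp and 9 farther out, down to -252 bp, while UQCR-6.4L stood apart at -464 bp. Most peaks, 14 of 22, had their summit in intergenic sequence and 8 inside an annotated gene.

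Sharing with a neighbour was common. At 15 of the 22 promoters the summit also lay within 500 bp of a TSS of another protein-coding gene. At 14 of these it lay upstream of a TSS of each gene, between divergent starts. At ND-ASHI, ND-MWFE, COX5A and ATPsynbeta that summit was also in an intron of the member or its neighbour. In 6 cases (27.3%, 13.2 to 48.2%) the TSS of the other gene was the nearer one, against 26.4% of all occupied protein-coding genes. These were ND-42 with Cchl, ND-51 with CG13994, ND-MWFE with TppII, COX5B with IFT52, COX6B with CG33932 and ATPsynbeta with CG11076. At 7 promoters there was no other coding TSS within 500 bp of the summit, namely ATPsynB, ATPsynO, ND-13A, ND-B17, ND-B22, SdhB and UQCR-6.4L. A peak between divergent starts cannot be assigned to either gene from these lists.

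**Figure D3:**
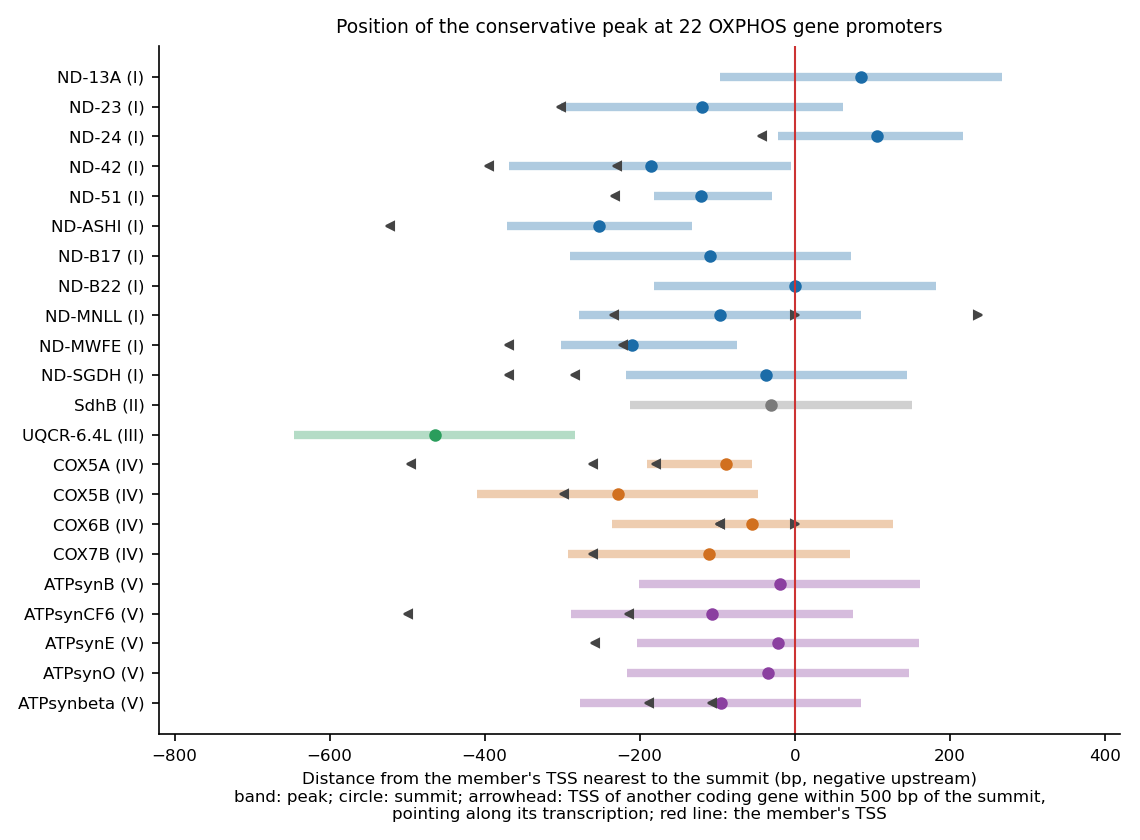
Position of the conservative peak (band) and its summit (circle) at the 22 occupied promoters, in bp from the member's TSS nearest to the summit (red line), with arrowheads at the TSSs of other coding genes within 500 bp of the summit. The summit lies upstream at 19 of 22 genes, and at 14 it lies between a TSS of the member and a TSS of a coding gene on the opposite strand.

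The replicates differed in how many peaks passed their own threshold, and the members followed this. In replicate 1's own thresholded list 22 members (25%) were occupied against 22.9% of protein-coding genes, and in replicate 2's list 11 (12.5%, 7.13 to 21.0%) against 14.6%. All 11 of replicate 2 were also among those of replicate 1. Of the 22 members in the conservative list, 11 passed in both replicates, 7 in replicate 1 alone and 4 (ND-13A, SdhB, ATPsynO and ATPsynbeta) in neither, and none passed in replicate 2 alone. Replicate 1's list also held ND-30, SdhC, COX7C and COX8, which had no conservative summit at the promoter. By complex, replicate 2's list held 6, 0, 0, 3 and 2 members of complexes I to V. Over all occupied protein-coding genes 57.9% passed in both, 27.6% in replicate 1 alone and 2.75% in replicate 2 alone.

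All 22 conservative members had a ranked peak in each replicate's own list. Their signals ran from 35.6 to 378 in replicate 1 and from 24.9 to 162 in replicate 2, and the same gene, ND-ASHI, was highest in both. Their summits lay a median of 19.5 bp apart between the replicates and at most 149 bp, at ND-13A. Signals of different lists share no stated scale, so the lower numbers in replicate 2 are not a measure of weaker binding. Of the other members, 35 had a ranked peak in both replicates, with medians of 21.4 and 19.6, below the 88.7 and 46.2 of the conservative members. The strongest peak near any TSS was taken in each replicate, so these pairs need not be the same peak. At COX7C, for example, the summits lay at 10048547 in replicate 1 and 10049775 in replicate 2. The highest signals of members without a conservative summit, 53.5 at COX7C in replicate 1 and 48.1 at COX7AL2 in replicate 2, were above the lowest of the conservative members, so the ranges overlapped. The conservative list was thresholded on these same replicates. Lower medians in the members outside it thus follow from the selection and describe no separate trait of the genes.

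**Figure D4:**
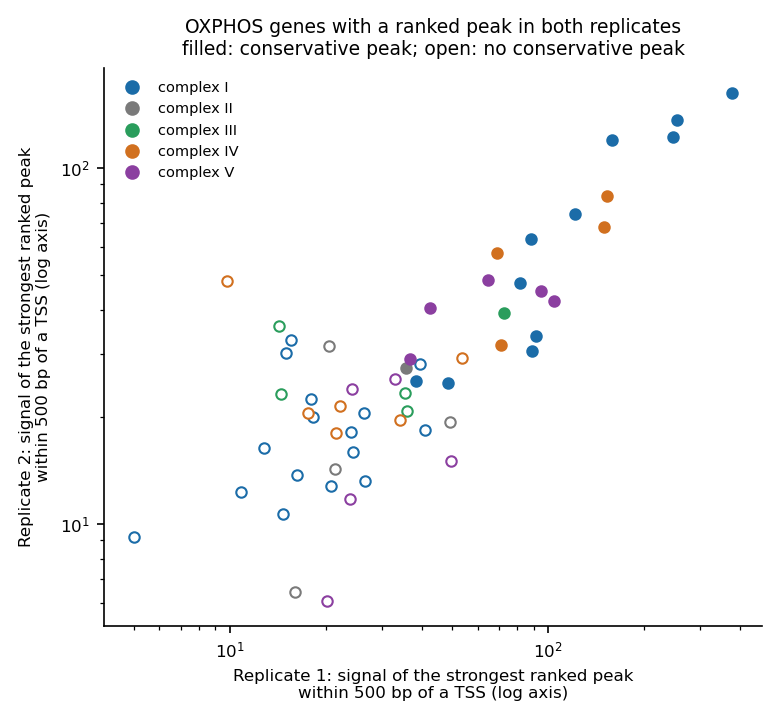
Signal of the strongest ranked peak within 500 bp of a TSS in replicate 1 (x) and replicate 2 (y), on log axes, for the members with a ranked peak in both replicates. The peak was picked in each replicate separately, so for genes without a conservative peak it need not be the same one. The 22 genes with a conservative peak (filled) run from 35.6 to 378 and from 24.9 to 162, and the 35 without one (open) have lower medians, 21.4 and 19.6, with ranges that overlap those of the filled points. The lower medians follow from the thresholding of the conservative list on the same replicates.

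Of the 66 members without a conservative summit at the promoter, 47 had a ranked peak there, with signals from 3.04 to 71.7 and a median of 32.3, close to the 32.0 of the other protein-coding genes with a ranked peak only. A total of 6 had a global IDR of at most 0.05. They were ATPsynC at 0.0121, UQCR-Q at 0.0143, COX7C at 0.0183, UQCR-14 at 0.0244, COX8 at 0.0358 and ND-B18 at 0.0421. With them the count of members rose to 28 (31.8%, 23.0 to 42.1%) against 30.1% of protein-coding genes. COX7C and COX8, small membrane subunits of complex IV, were also in the authors' second thresholded list, which held 23 members (26.1%) against 25.7% of protein-coding genes.

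A conservative summit lay 500 to 2000 bp from the nearest TSS at 9 members without one closer in. The strongest was at COX7C, at -1941 bp with a signal of 384. The other 8 were SdhA and SdhC, given above, ND-75, UQCR-14 at -925 bp with 112, ND-39 at 1503 bp with 217, ND-B14 at -1294 bp with 88.6, ATPsyndelta at -1696 bp with 124 and COX5BL at -1859 bp with 107. The peak at COX5BL is the one given above for COX5B, so it counted for both genes. Within 2000 bp the count reached 31 members (35.2%, 26.1 to 45.6%) against 33.2% of protein-coding genes.

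Motifs of the C/EBP and ATF families, to which the Xrp1 zipper is related, were in few of the members' summit windows. Their intervals held the shares at promoter summits of protein-coding genes. The composite core TTGCATCA was in none of the 22 summit windows, which allows a share of up to 14.9%, and in 0.169% of the 2373 windows at conservative promoter summits of protein-coding genes and 0.208% of 13945 windows centred 100 bp upstream of protein-coding TSSs. TTGCNNAA was in 1 window (4.55%, 0.807 to 21.8%), against 9.36% and 8.17%, and in none without replicate 1 or 13.6% without replicate 2. TTGCAA was in 1 (4.55%), against 4.97% and 4.46%, and TGACG in 2 (9.09%), ND-MNLL and ATPsynE, against 7.16% and 7.87%. In windows reaching 100 bp either side TGACG was at 6 members (27.3%, 13.2 to 48.2%) against 14.3% of promoter summits. In a separate setting, without replicate 1, TGACG was in none of 11 windows, which allows up to 25.9%, against 6.01% of promoter summits. All words were searched on both strands, and TGACG lies within TGACGTCA, which was in none of the 22.

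Words of general promoter factors were also in few or none of the 22 windows, and each interval held the share at promoter summits. GAGAG, bound by GAGA factor, was in 3 windows (13.6%, 4.75 to 33.3%), at COX6B, ATPsynB and ATPsynbeta, against 238 of the 2373 promoter summits and 13.4% of promoters. The DNA replication element TATCGATA, the E-box CACGTG, the NRF1-type core GCGCATGC, the GATA-type word AGATAA and the core promoter word GGTCACACT were in none of the 22, and in 3.12%, 0.801%, 0.169%, 6.70% and 0.759% of the promoter summits. AGATAA appeared at 9.09% of the members' summits without replicate 2, against 7.42% of promoter summits in that replicate 1 list. With 22 windows, differences of a few percentage points were not detectable. A match or its absence describes the letters of a window and not the binding of a factor.

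Related mitochondrial genes outside the symbol rule gave shares on both sides of the background of 23.1%. Of 9 respiratory subunits and cytochrome c genes with other symbols, 5 were occupied (55.6%, 26.7 to 81.1%). They were blw, the ATP synthase alpha subunit, at 375, Cyt-c-d, a cytochrome c, at 870, levy and cype, subunits of complex IV, at 316 and 110, and ox, of complex III, at 103. At Cyt-c-d, ox, levy and cype the nearest TSS was that of another gene. Without replicate 1 the count was 3 of 9, and within 250 bp it was also 3. For the catalytic core of the ATP synthase, a conservative peak thus lay near both blw and ATPsynbeta, with signals of 375 and 82.5. The peak near ATPsynbeta passed neither replicate's own threshold, and its summit lay nearer to the TSS of CG11076.

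Of 17 genes of the tricarboxylic acid cycle and pyruvate dehydrogenase, 8 (47.1%, 26.2 to 69.0%) were occupied. The strongest was Idh3g, a subunit of the NAD-dependent isocitrate dehydrogenase, at 861, and Fum1 shared the peak of ND-ASHI. Pdhb, of pyruvate dehydrogenase, was at 222, the aconitase mAcon1 at 217, Idh3b at 187, Fum3 at 150, Scsalpha1 at 84.8 and the citrate synthase kdn at 78.5. Of 10 assembly factors 3 were occupied (30.0%, 10.8 to 60.3%), with CIA30, for complex I, at 2003, Ttc19, for complex III, at 326 and Coa8, for complex IV, at 100. The peak near CIA30, of rank 16, was stronger than any of the 22 members, but its summit lay nearer to the TSS of CG7601. The peaks near Ttc19 and mAcon1 were likewise nearer to Acn and CG43345, and that of Fum1 to ND-ASHI.

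A list of 12 genes held carriers, porin and inner-membrane dehydrogenases, and 3 (25%, 8.89 to 53.2%) were occupied. They were the uncoupling protein gene Ucp4A at 697, Dhod, the dihydroorotate dehydrogenase, at 162 and the phosphate carrier Mpcp2 at 91.5. Of 15 genes of mitochondrial DNA upkeep and transcription 3 (20.0%, 7.05 to 45.2%) were occupied, with mTerf5 at 181, the single-stranded DNA binding protein mtSSB at 133 and ewg, the fly relative of NRF1, at 109. TFAM, PolrMT and srl, the fly relative of PGC-1, were not occupied. The intervals of the first 2 of these 5 lists, the other subunits and the tricarboxylic acid cycle, lay above the background, and those of the other 3 held it. For the other subunits this was lost without replicate 1 and within 250 bp, where 3 of 9 (33.3%, 12.1 to 64.6%) stood against 14.6% and 18.6% of protein-coding genes. For the tricarboxylic acid cycle it was lost within 1000 bp, where 8 of 17 (26.2 to 69.0%) stood against 27.0%.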

How the data were processed

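ChIP-seq peaks of Xrp1-eGFP came from whole embryos, in 2 biological replicates of 1 group, with chromatin sheared to 200 to 800 bp, per the labels. The deposited lists were aligned to dm6 and ranked by IDR across replicates or pseudoreplicates, per the labels and the notes deposited with them. The sources used here do not name the aligner or the peak caller. The deposited signal column is the authors' peak signal, of unstated scaling, and is comparable only within a list. The authors' score column holds their IDR score, and the deposited -log10 columns hold the local and global IDR. The conservative list held 7537 peaks, each found with an unchanged signal in the longer ranked list from comparing the replicates. The hours in the age label disagree with 8 to 24 h and were left aside.

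TSSs of all transcripts came from Ensembl release 115, without transposable elements, and sequence from the RefSeq Release 6 genome. Summits on the 6 main chromosome arms were assigned to each gene with a TSS within 500 bp, and the strongest was used. Shares carry 95% Wilson intervals, which cover counting error over genes only. No p-value was computed. Every occupied member was named, members without a conservative summit were named for a ranked peak whose global IDR was 0.05 or lower or a conservative summit 500 to 2000 bp away, and other members as examples of a role. The assignment was tested on simulated data. The members and lists were chosen with earlier results of these data known. Of the list symbols, Nc73EF, Oxa1, Coa3, Fmc1, Atpaf1 and Atpaf2 matched no annotated gene. Python 3.11.15, NumPy 2.4.6, SciPy 1.17.1 and matplotlib 3.10.9 were used. Alternatives changed the peak list, the replicate, the distance, the TSS set, the summit rule and the motif window.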

Additional observations from a re-analysis of the deposited data

How the results depend on the processing

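Of 160 alternative values for 26 results, 135 stayed within 1.5 times a count or within the 95% interval of a share, and 25 moved farther. The intervals of the motif shares are wide, so TGACG at 27.3% and TTGCNNAA and TTGCAA at 9.09% in windows reaching 100 bp either side, TTGCAA at 9.09% without replicate 1 and AGATAA at 9.09% without replicate 2 are among the former. So are all alternatives for TTGCATCA, TGACGTCA, TATCGATA, CACGTG, GCGCATGC and GGTCACACT, which were in no member window under any setting. These words are rare at promoter summits, so their unchanged values say little about stability. With replicate 2's own list alone (without replicate 1) or replicate 1's alone (without replicate 2), the occupied members numbered 11 to 22, complex I 6 to 11, complex II 0 to 1, complex III 0 to 1, complex V 2 to 3, L paralogs 0 to 1, and the other respiratory subunits 3 to 5. In the same lists the share of members with an upstream summit was 81.8 to 100% and that of TTGCNNAA 0 to 13.6%. The complex II gene in replicate 1's list was SdhC and not SdhB. A distance of 250 bp gave 0 members for complex III, 0 L paralogs and 3 other respiratory subunits. At 1000 bp complex II and complex III had 2 each and the carriers 6. At 2000 bp complex II had 3, complex III 2 and the L paralogs 2, and 54.8% of summits were nearer to another gene. A global IDR of at most 0.05 gave 3 for complex III, structural subunits alone gave 0 for complex III, and giving each summit to its nearest TSS alone left 2 for complex IV. TGACG was in 0 windows without replicate 1, and GAGAG in 4.55% of 51 bp windows. Replicate 2's list is shorter (4402 peaks against 7520), and the cause was not tested. The alternatives for the L paralogs and for ranked peaks of any strength were chosen after seeing the data. No paired analysis was possible because the samples form 1 group. Complexes II and III have 8 and 9 genes, so 1 gene decides their counts, and no count depends on a known depth.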
